A study of Rattus norvegicus with 5 samples.

Results

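A set of 10 genes of the nucleolus and of ribosome biogenesis was followed in rat parotid gland, the salivary gland beside the ear, over the first 60 min after isoproterenol. The members were chosen by name, with earlier results of these data known. They are all probes that the platform annotation gives to Ddx21, Npm1, Ncl, Polr1b, Fbl, Nop56, Nop58, Nolc1, Dkc1 or Bop1. This gave 9 probes for 9 of the 10 genes, with 1 probe per gene, of 13336 genes named on the array. No probe carried Dkc1, which is not analysed here.

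All rats were male Sprague-Dawley animals aged 2 to 3 months. The control group was 2 rats injected into the peritoneum with normal saline. The other 3 rats received isoproterenol, an agonist of beta-adrenergic receptors, by the same route, and their glands were taken at 10, 30 or 60 min, with 1 rat at each time. The labelled dose of 20 mg per g body weight is implausibly large, so the dose given is uncertain. The labels do not give the time between saline and death of the controls. Each rat's gland RNA went on 1 Illumina bead array, so a difference between times may also be a difference between rats.

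Ribosome production starts in the nucleolus, where RNA polymerase I transcribes the large ribosomal RNA precursor. Box C/D and H/ACA particles, each a small RNA with its proteins, direct methylation and pseudouridylation of that precursor, while helicases, chaperones and assembly factors fold and cut it into the 2 subunits. Isoproterenol given to rodents over days is known for making the parotid gland enlarge, a growth that requires new ribosomes.

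At 60 min the members moved apart. Ddx21 and Npm1 rose 3.75-fold and 3.47-fold, while Ncl fell 2.46-fold and Polr1b 1.85-fold, all 4 past an adjusted p of 0.05 with limma. The other 5 did not pass the test in either direction. The 4 calls held in 7 of 8 other ways of processing and were lost when probes that were never above background were tested as well (adjusted p from 0.0696 to 0.0869). At 10 and 30 min none of the 9 passed.

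The sequences just before the annotated genes of Ddx21, which rose, and of Ncl and Polr1b, which fell, are shown because these genes moved in opposite directions. Each run is 250 bases in RefSeq build GRCr8, read in the direction of the gene and ending at the base before the gene's annotated start. Capitals mark the letters TGACG on either strand, the core of the cAMP response element (CRE) that CREB binds, and CGGAAGTGA, an ETS site joined to the first letters of that core. The windows lie at chr20:31097239-31097488 (minus strand) for Ddx21, chr9:94456084-94456333 (minus strand) for Ncl and chr3:136786880-136787129 (plus strand) for Polr1b.
Ddx21: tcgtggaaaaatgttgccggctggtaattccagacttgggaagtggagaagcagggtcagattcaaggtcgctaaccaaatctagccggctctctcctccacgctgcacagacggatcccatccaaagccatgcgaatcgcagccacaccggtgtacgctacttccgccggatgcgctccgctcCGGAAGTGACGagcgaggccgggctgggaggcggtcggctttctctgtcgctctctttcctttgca
Ncl: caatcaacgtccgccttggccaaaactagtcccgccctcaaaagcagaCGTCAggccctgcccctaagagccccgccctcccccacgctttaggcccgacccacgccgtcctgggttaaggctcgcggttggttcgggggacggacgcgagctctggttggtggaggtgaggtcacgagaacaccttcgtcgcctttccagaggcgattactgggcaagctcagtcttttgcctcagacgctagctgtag
Polr1b: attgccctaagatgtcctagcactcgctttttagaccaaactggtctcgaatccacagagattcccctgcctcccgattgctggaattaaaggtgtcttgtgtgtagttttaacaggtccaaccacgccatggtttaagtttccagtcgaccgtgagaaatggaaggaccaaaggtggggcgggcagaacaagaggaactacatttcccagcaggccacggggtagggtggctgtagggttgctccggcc

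RefSeq windows were at hand for 9 of the 10 members, all but Bop1. The start that the promoter table uses lay downstream of the annotated gene start for 4 of the 9, so that 172 of the 250 bases lay inside the annotated gene for Npm1, 82 for Nop58, 164 for Nolc1 and all 250 for Nop56. Their matches are therefore not all upstream of the gene. The CRE core TGACG, searched on both strands, stood in 5 of these 9 windows (Ddx21, Ncl, Fbl, Nop58 and Nolc1) and in 18.2% of all 33469 promoters. The promoters were not matched to the members in base composition, and no difference of shares was tested. The full palindrome TGACGTCA, which contains that core, was in 0 of the 9 windows and in 1.59% of all promoters. CACGTG, the E-box that Myc and Max bind, was found in Dkc1 alone among the 9 and in 5.59% of promoters. CGGAAGTGA, whose last letters overlap the core, was searched because it was seen in these sequences. It stood 66 to 58 bases before the start of Ddx21 and in the part of the Nop58 window that lies inside the annotated gene, and in 0.971% of all promoters. Of these 2 genes Ddx21 rose at 60 min and Nop58 did not pass, and Npm1, which rose beside Ddx21, had no match to any of these letters.

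The values below are log2 levels after background correction and normalization, on a scale that ran from 4.17 to 15.32. All 9 probes had a detection p-value of 0 on all 5 arrays, so each was above background in every rat. A level is comparable between arrays for the same probe and not between probes. The levels of each gene on every array are plotted first, and then the differences from saline.

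**Figure D1:**
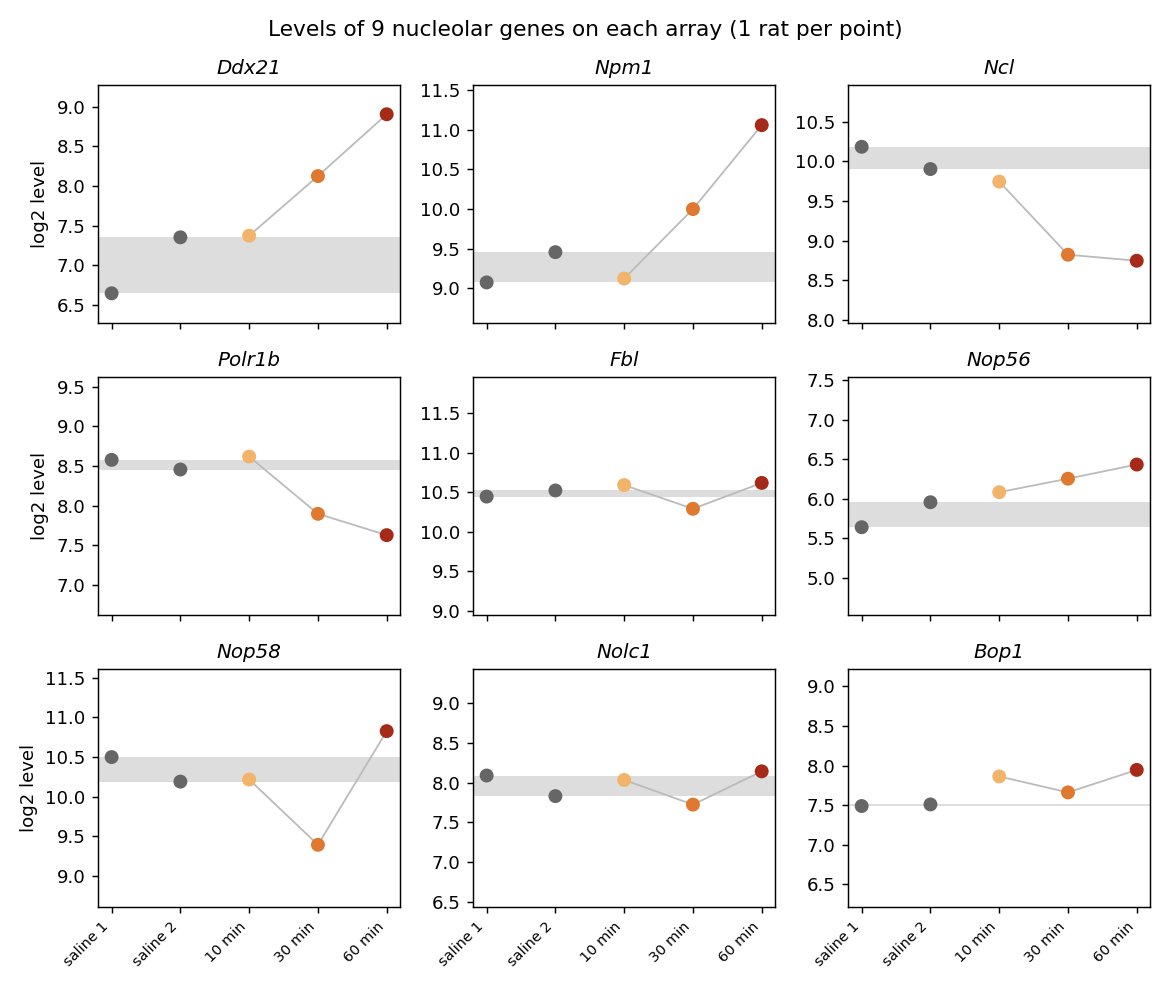
Log2 level of each of the 9 genes (vertical axis, 3 log2 units in every panel) on the 5 arrays (horizontal axis), with 1 point per rat, a grey band between the saline rats, and a line joining the isoproterenol rats. Ddx21 and Npm1 stand highest at 60 min, Ncl and Polr1b lowest, and Nop58 is lowest at 30 min and highest at 60 min.

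Polr1b encodes a core subunit of RNA polymerase I, the enzyme at the head of the pathway. Its level was 8.58 and 8.46 in the saline rats, 8.62 at 10 min, 7.90 at 30 min and 7.63 at 60 min. The 10 min rat thus stood just above both controls and the 30 and 60 min rats below both. The fall at 60 min was -0.89 ± 0.21 (SE) from a control mean of 8.52 ± 0.09 (SD, n = 2), with an adjusted p of 0.0414 by limma. At 30 min the difference of -0.62 ± 0.21 (SE) had an adjusted p of 0.222.

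Ncl encodes nucleolin, an abundant nucleolar RNA-binding protein that acts in transcription and early processing of the ribosomal RNA precursor. It stood at 10.18 and 9.90 in the saline rats and at 9.75, 8.82 and 8.75 at 10, 30 and 60 min. In the deposited intensities this is 1213 and 1007 for saline and 908, 502 and 478 for the 3 times. Every isoproterenol rat was below both controls, by little at 10 min and clearly at the later times. Ncl fell by 1.30 at 60 min, a difference of -1.30 ± 0.23 (SE) with an adjusted p of 0.0294 by limma. The 30 min difference was nearly as large, -1.22 ± 0.23 (SE), and ranked 99 by size among the probes that were lower at that time. It did not pass (adjusted p = 0.207), and 60 min minus 30 min was -0.08 with a 95% interval from -0.77 to 0.62.

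Npm1 encodes nucleophosmin, a nucleolar chaperone that takes part in assembly and export of ribosomal subunits. Its levels were 9.07 and 9.46 in the saline rats, 9.12 at 10 min, 10.00 at 30 min and 11.06 at 60 min. In deposited intensity it went from 588 and 752 in the saline rats to 2184 at 60 min. The 10 min rat lay within the control range and the later rats above it. Npm1 rose by 1.79 ± 0.25 (SE) on the log2 scale at 60 min, with an adjusted p of 0.0281 by limma, equal to the smallest that any probe reached at that time. At 30 min it was 0.73 ± 0.25 (SE) higher (adjusted p = 0.226). The step from 30 to 60 min was 1.06, with a 95% interval from 0.30 to 1.81 and an adjusted p of 0.349.

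Ddx21 encodes a nucleolar RNA helicase that works with RNA polymerase I and on box C/D particles. Its level was 6.65 and 7.35 in the saline rats, 7.37 at 10 min, 8.13 at 30 min and 8.91 at 60 min. The 10 min rat was level with control 2, and the 30 and 60 min rats were above both controls. Ddx21 rose by 1.91 ± 0.34 (SE) at 60 min, with an adjusted p of 0.0294 by limma. Its controls differed by 0.71, more than 94.3% of tested probes did, so its rise was 2.26 against control 1 alone and 1.55 against control 2 alone. At 30 min it was 1.13 ± 0.34 (SE) higher (adjusted p = 0.214).

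Nolc1 encodes a phosphoprotein that chaperones box C/D and H/ACA particles between Cajal bodies and the nucleolus. It ranged from 7.72 at 30 min to 8.14 at 60 min, beside 8.09 and 7.83 in the saline rats. At 60 min it differed by 0.18, with a 95% interval from -0.41 to 0.77 and an adjusted p of 0.584 by limma. An effect of up to 1.71-fold higher or 1.33-fold lower thus lies within the interval.

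The members that encode core proteins of the box C/D particle showed different courses on these arrays, with none of them past the test in any comparison. Fbl encodes fibrillarin, the methyltransferase of the particle, and Nop56 and Nop58 encode the paired scaffold proteins that hold it on the guide RNA. Fbl stood at 10.44 and 10.52 in the saline rats and at 10.59, 10.29 and 10.62 at 10, 30 and 60 min. Its 60 min difference was 0.13, with a 95% interval from -0.40 to 0.67 and an adjusted p of 0.664 by limma.

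Nop56 had levels of 5.64 and 5.96 in the saline rats and 6.08, 6.25 and 6.43 at 10, 30 and 60 min. All 3 isoproterenol rats were above both controls, at differences of 0.28, 0.45 and 0.63 from the control mean, none past the test (adjusted p = 0.112 at 60 min with limma). Other processing gave Nop56 a smaller 60 min difference, at 0.34 from the authors' processed values, 0.42 when the offset was 50 and 0.37 when no background was removed.

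Nop58 stood at 10.50 and 10.19 in the saline rats, at 10.22 at 10 min, at 9.39 at 30 min and at 10.83 at 60 min. In deposited intensity these are 1497, 1217, 1239, 721 and 1866. The 10 min rat lay within the control range, the 30 min rat below it and the 60 min rat above it. It was 0.95 ± 0.24 (SE) lower at 30 min (adjusted p = 0.207) and 0.48 ± 0.24 (SE) higher at 60 min (adjusted p = 0.193). Between the 30 and 60 min rats it was 1.43 higher, a value that does not use the controls. The 95% interval, from 0.73 to 2.14, does take its spread from the saline pair and from all probes. Only 0.639% of tested probes had an increase as large as that of Nop58 or larger between those rats, and its adjusted p was 0.299 with limma.

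Bop1 encodes a subunit of the complex that, with the products of Pes1 and Wdr12, matures the large subunit. Its controls were close, at 7.49 and 7.51, and the isoproterenol rats stood above both at 7.86, 7.66 and 7.95. The 60 min difference of 0.45 had a 95% interval from -0.08 to 0.97 and an adjusted p of 0.168 by limma. 

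**Figure D2:**
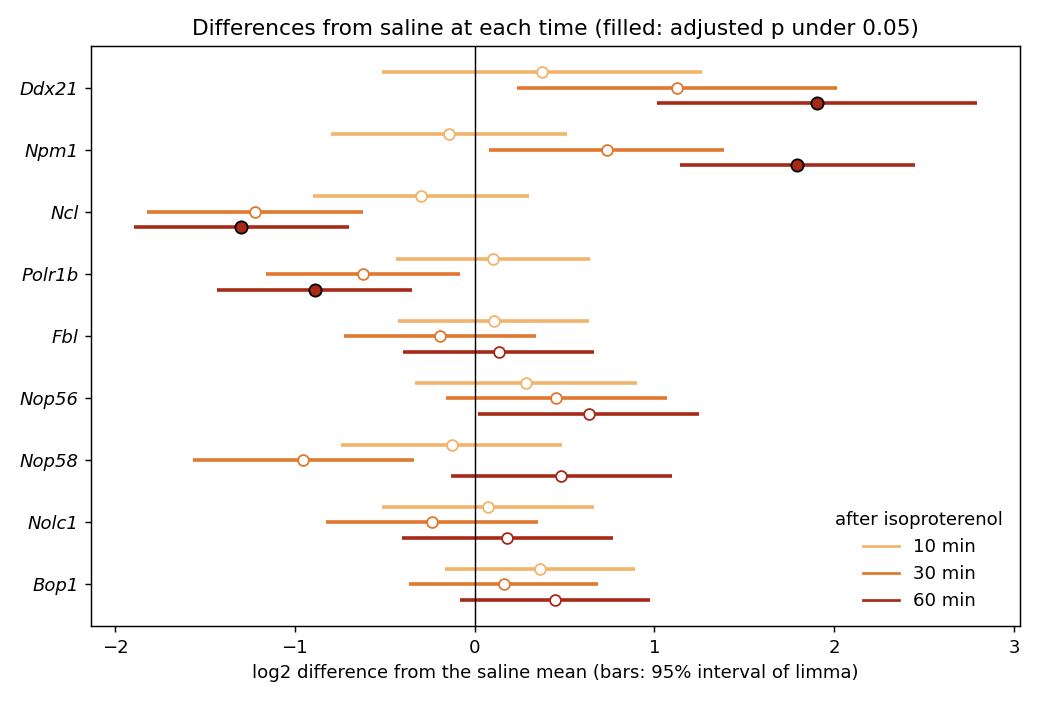
Log2 difference from the saline mean (horizontal axis) for each gene (vertical axis) at 10, 30 and 60 min, with bars for limma's 95% interval, which takes its spread from the saline pair and from all probes. Filled points are those with an adjusted p under 0.05, namely Ddx21 (1.91), Npm1 (1.79), Ncl (-1.30) and Polr1b (-0.89) at 60 min.

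The counts are read beside those of all tested probes. At 60 min 2 of 9 members rose (22.2%), where 13% of the 10793 tested probes did, and 2 fell, where 11.4% did. Together 4 of 9 (44.4%) passed, beside 24.4% of all tested probes, and with 9 members this difference of shares was not tested. Because the members were chosen with earlier results of these data known, a larger share among them at any time is no evidence about the set. All 9 members lay outside the control range at 60 min, 7 above and 2 below, beside 39.3% above and 48.2% below over all tested probes. An unadjusted p under 0.05 was reached by 5 members with limma, the fifth being Nop56, beside 42% of all tested probes. The median difference of the members was 0.45, beside -0.08 over all tested probes.

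At 30 min 0 of 9 members passed and 0% of all tested probes did, while 5 members (55.6%) had an unadjusted p under 0.05 with limma, beside 19.8% of all tested probes. These were Ncl, Nop58, Ddx21, Polr1b and Npm1. At 30 min 4 members lay above both controls and 5 below, beside 38.8% and 44.1% of all tested probes, and their median difference was -0.19, beside -0.03. At 10 min 0 members passed, beside 0.0278% of tested probes, and 0 had an unadjusted p under 0.05 with limma, beside 6.07%. At that time 5 members lay above both controls and 1 below, beside 37.9% and 30.7% of tested probes. The members' differences at 10 min ran from -0.30 for Ncl to 0.37 for Ddx21. Between 30 and 60 min 0 members passed, as did 0% of all tested probes, and Npm1 and Nop58 had an unadjusted p under 0.05, as did 13.5% of tested probes. The comparisons with saline share the same 2 control arrays.

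Set side by side over the 5 arrays, the members fell into unlike courses. Distance was measured as the Euclidean distance between log2 levels after subtracting each gene's saline mean. Fbl and Nolc1 were the closest members, at 0.25, followed by Nop56 and Bop1, at 0.41. None of these genes passed the test, and genes that change little lie close together by this measure. Ddx21 and Npm1 were 0.70 apart and Ncl and Polr1b 0.84, while Ddx21 and Ncl were 4.09 apart. Within the box C/D core, Fbl lay 0.85 from Nop56 and 0.91 from Nop58, and Nop56 and Nop58 were 1.54 apart.

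By the same measure over 7760 other named probes, the profiles nearest to Ddx21 were those of Peak1 (0.09), Irak1 (0.09) and Tfcp2 (0.13). Those nearest to Npm1 were of Hyal4 (0.11), Tpd52 (0.12) and Synj2bp (0.16). Nearest to Ncl were Scnn1b (0.18), Lpar1 (0.19) and Snrnp48 (0.21), and nearest to Polr1b were Sh3bp5 (0.06), Fmr1 (0.06) and Ctbp2 (0.09). The median distance over all these probes was 2.46 for Ddx21, 2.14 for Npm1, 1.77 for Ncl and 1.10 for Polr1b. With 5 arrays such neighbours describe these rats.

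Of 178 further names in the pathway, some of them older symbols of the same gene, 125 were on the array and 111 were tested. At 60 min 8 of the 111 rose (7.21%) and 9 fell (8.11%), both shares below those of all tested probes given above. Their median difference was 0.03. At 10 and 30 min none of the 111 passed. An unadjusted p under 0.05 with limma was reached by 0, 15 (13.5%) and 33 (29.7%) of them at 10, 30 and 60 min. Over all tested probes the shares were 6.07%, 19.8% and 42%.

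Among 9 tested RNA polymerase I genes besides Polr1b, Polr1h, which encodes a small subunit of the enzyme, rose 2.88-fold at 60 min, from 8.86 and 9.31 in the saline rats to 10.61 (adjusted p = 0.0293 with limma). Polr1h thus moved against Polr1b. Taf1c, a subunit of the factor that brings the polymerase to ribosomal DNA, fell 2.07-fold (adjusted p = 0.0308). Its level was already 7.61 at 30 min, beside 7.64 at 60 min and 8.67 and 8.70 in the saline rats. Polr1a, the largest catalytic subunit, named after its value was seen, was 0.80 lower without passing (adjusted p = 0.0508).

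Of 9 tested genes of box C/D and H/ACA particles and their assembly, Gar1 rose and Pih1d1 and Rpap3 fell at 60 min. Gar1, an H/ACA core protein and partner of dyskerin, the product of Dkc1, rose by 0.87 ± 0.21 (SE). Pih1d1 and Rpap3, parts of the co-chaperone complex that assembles box C/D particles, fell by 1.24 and 1.06. Nhp2, another H/ACA core protein that was named after its value was seen, was 0.80 lower without passing (adjusted p = 0.0523 with limma). Znhit6, of the same list and likewise named afterwards, was 0.73 higher without passing (adjusted p = 0.0644 with limma). The median of these 9 genes was -0.65.

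Of 34 tested small subunit genes 1 rose and 2 fell at 60 min, leaving 31 that did not pass. Utp15, part of the complex that first binds the precursor, rose 3.51-fold, from 5.11 and 5.12 in the saline rats to 6.93 at 60 min, with 5.46 at 30 min. Its saline levels were close to background, with detection p-values of 0.0087 and 0.0038 beside the limit of 0.01. Ddx52, a helicase, fell by 1.19 and Ngdn by 0.83. Of 38 tested large subunit genes, Nip7, Pes1 and Nop16 rose and Zfp593 fell. Nip7, which binds the precursor of the large subunit, rose 2.85-fold at 60 min, its 30 min level of 7.29 still being close to the 7.17 and 7.02 of the saline rats. Pes1, whose product pairs with that of Bop1, rose by 1.13 ± 0.24 (SE) and was above background in 1 of the 2 saline rats. Nop16 rose by 1.06 and Zfp593 fell by 1.01.

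Of 11 tested genes of the exosome and other nucleases, Exosc8, an exosome core subunit, fell by 1.61 and Parn, a poly(A) ribonuclease that was above background in 1 saline rat, rose by 1.02. None of the other 9 passed. Among 4 listed paralogs of the members, Ddx50, Npm2, Npm3 and Fbll1, 2 had a probe and 0 were above background on any array, so none was tested.

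Of 10 tested regulators of the nucleolus, Max rose and Nop53 and Mnt fell at 60 min. Nop53, a nucleolar protein of large subunit maturation, was bright in the saline rats, at 11.39 and 11.37, and stood at 11.10, 10.92 and 9.75 at 10, 30 and 60 min. Its fall of -1.63 ± 0.20 (SE) was 3.09-fold (adjusted p = 0.0281 with limma). Max, the partner of Myc, was not above background in either saline rat and was at least 1.81-fold higher at 60 min (adjusted p = 0.0314 with limma). It entered the test only through isoproterenol arrays where it was above background. Its call as higher, 1 of the 8 in the pathway lists, is thus no independent support. Mnt, a Max partner that opposes Myc, fell 2.91-fold.

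Myc, the transcription factor best known for driving ribosome biogenesis genes, did not pass at any time. It stood at 9.08 and 8.93 in the saline rats and at 9.37, 8.09 and 9.63 at 10, 30 and 60 min. Like Nop58, Fbl and Nolc1, it was below both controls at 30 min and above both at 60 min. Its differences from saline were -0.92 at 30 min (adjusted p = 0.207 with limma) and 0.63 at 60 min (adjusted p = 0.0896). It was 1.54 higher in the 60 min rat than in the 30 min rat, with an adjusted p of 0.270.

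**Figure D3:**
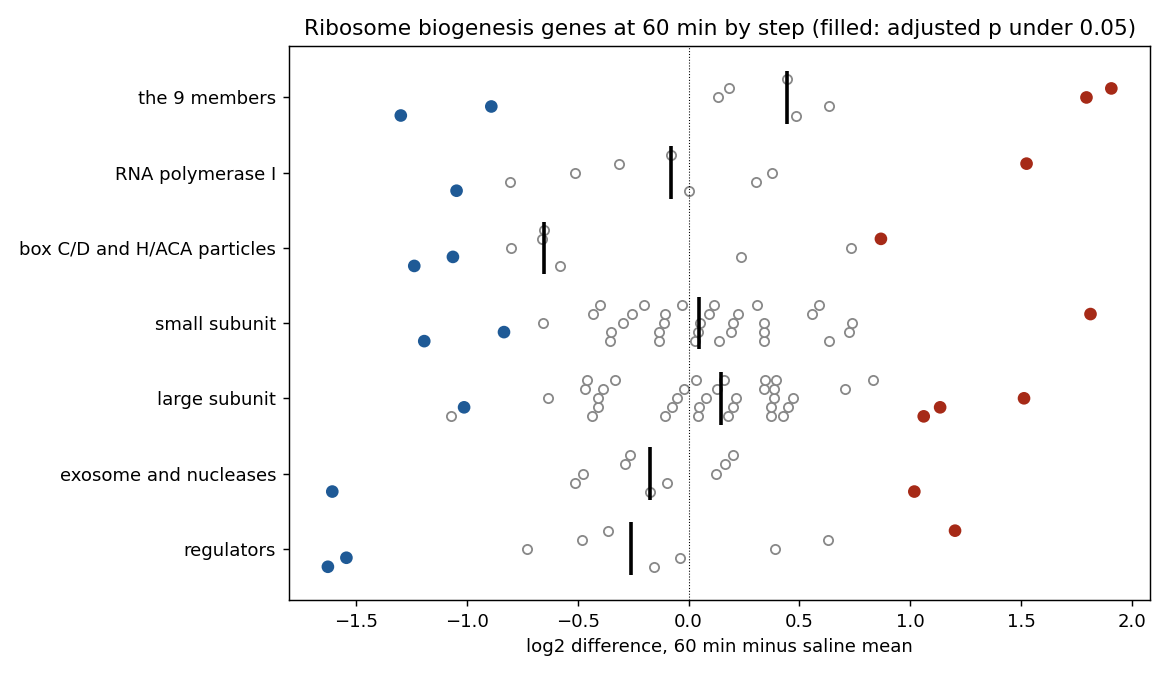
Log2 difference of 60 min from the saline mean (horizontal axis) for the 9 members and the 111 other tested genes by step of the pathway, with 1 point per gene and a bar at each median. Red and blue points passed the test as higher or lower, and open points did not; 8 of the 111 were higher and 9 lower.

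**Figure D4:**
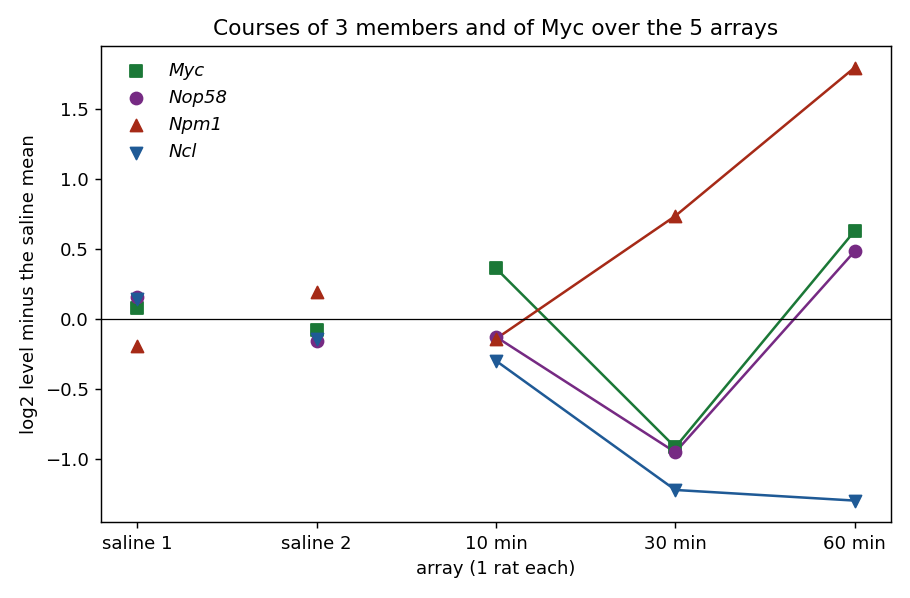
Log2 level minus the saline mean (vertical axis) of Nop58, Npm1, Ncl and Myc on each array (horizontal axis), with 1 point per rat. Nop58 and Myc are lowest at 30 min (-0.95 and -0.92) and highest at 60 min (0.48 and 0.63), while Npm1 ends at 1.79 and Ncl at -1.30.

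The levels of cell type markers differed between rats, and in whole tissue fewer cells of a type cannot be told apart from less RNA per cell. Of 17 acinar marker names 10 had a probe, and 7 were tested because they were above background on at least 1 array. The others with a probe were above background on none. The 7 were above background on every array. Their summed linear level was 161889 and 183504 in the saline rats and 178903 to 184074 after isoproterenol. The summed level of 12 tested skeletal muscle markers was 53759 in control 1 and 1355 in control 2, and 1382, 54344 and 6529 at 10, 30 and 60 min, with 9 to 12 of them above background. The 30 min rat was thus close to control 1 in muscle markers. Against control 1 alone and control 2 alone, the 30 min differences were -1.36 and -1.08 for Ncl, -1.11 and -0.80 for Nop58, -0.68 and -0.56 for Polr1b, 0.93 and 0.54 for Npm1, and 1.48 and 0.77 for Ddx21. For the 4 others they were -0.15 and -0.23 for Fbl, 0.61 and 0.30 for Nop56, -0.37 and -0.11 for Nolc1, and 0.17 and 0.15 for Bop1. The part of muscle in these values was not tested.

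The 12 tested endothelial and fibroblast markers summed to 25173 and 24045 in the saline rats and to 6508, 9577 and 7882 at 10, 30 and 60 min, with 11 to 12 of them above background. At 60 min 11 of these 12 passed as lower and 0 as higher, beside 11.4% and 13% of all tested probes. The 9 tested adipocyte markers summed to 7990 and 7536 in the saline rats and to 3906, 6441 and 2240, with 6 to 9 of them above background. Of these 9, 7 passed as lower at 60 min and 0 as higher. The 10 ductal markers summed to 12788 and 10362 in the saline rats and to 10856, 7666 and 7349, with 7 to 10 above background. The ductal sum was thus lowest at 30 and 60 min, and the ductal markers went both ways. At 60 min 2 of these 10 passed as higher and 3 as lower, beside the same 13% and 11.4% of all tested probes. Scnn1b, the nearest profile to Ncl, is 1 of these 10 ductal markers, which did not all move alike. The sums of 5 myoepithelial markers were 2107 and 1750 in the saline rats and 980, 1080 and 1149. At 60 min 2 of these 5 passed as lower and 0 as higher. The sums of 10 lymphoid and myeloid markers were 2162 and 1872 in the saline rats and 1554, 1755 and 2313, with 5 to 8 above background. Although their sum was highest at 60 min, the median difference of these 10 was then -0.35, with 1 past the test as higher and 2 as lower. The part of the marker differences in the falls of Ncl, Polr1b, Nop53 and the other genes was not tested.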

How the data were processed

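Parotid RNA of 5 rats was amplified to biotin-labelled cRNA and hybridised to Illumina bead arrays, per the labels' protocols. The authors deposited a linear intensity and a detection p-value for 22517 probes per array. The intensity table is named non-normalized, yet its sorted columns differed by a median of 0.133% (range over the 5 arrays relative to their mean), so the 5 columns share nearly the same distribution. The authors' processed log2 values were also deposited and served as an alternative; the transform and software are not given in the sources used here. Genes were named from the platform annotation (13787 probes with 1 symbol, 8730 with none), with Entrez identifiers of 13747 probes matched to RefSeq's GRCr8 table.

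The neqc function of limma 3.58.1 in R 4.3.3 took the background from the detection p-values (normexp), added an offset of 16, quantile normalized the arrays and took log2. The 10793 probes with a detection p-value under 0.01 on at least 1 array were tested with lmFit and eBayes, 1 mean per group, two-sided, Benjamini-Hochberg adjusted over all of them at 0.05. The saline pair supplies the only residual degree of freedom (1), to which eBayes added 3.88 from the prior, so each lone isoproterenol rat is assumed to vary as the saline rats. With 1 rat per time nothing checks that, and the number of arrays limits the precision: 9095 to 9459 probes were above background on each.

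A gene with several tested probes entered the lists by its brightest one. The text names all members; of the pathway lists, up to 4 genes per list and direction past the threshold; Myc and the paralogs; and the 3 nearest profiles of each member that passed. Outside this rule Polr1a, Nhp2 and Znhit6, which did not pass, were named after their values were seen. Members and lists were chosen with earlier results of these data known. A fold written "at least" replaces signals below background by the dimmest signal above it on that array. Alternatives changed the background correction, offset, filter, prior variance, scaling and controls. Promoter sequences are RefSeq's, build GRCr8.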

Additional observations from a re-analysis of the deposited data

How the results depend on the processing

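Across 8 alternatives (no background correction, an offset of 50, the authors' values, no filter on dim probes, detection on 2 arrays, a robust prior variance, an intensity trend in that prior, and median scaling) no member changed direction in any of the 4 comparisons. At 60 min the calls of Ddx21, Npm1, Ncl and Polr1b held in 7 of the 8, with log2 differences from 1.57 to 1.93, 1.72 to 1.83, -1.30 to -1.21 and -0.89 to -0.75. They were lost without the filter on dim probes, when the 60 min counts went from 1403 probes higher and 1231 lower to 0 and 0, those of the members to 0 higher and 0 lower, those of the other pathway genes from 8 and 9 to 0 and 0, and the 10 min count of higher probes from 3 to 0; 22517 probes were then tested, and the adjusted p of the 4 members rose to between 0.0696 and 0.0869. At 30 min, where 0 passed, 6 probes were higher and 1 lower without background correction, 3 higher with an offset of 50, 3 higher with the authors' values, and 7 higher and 1 lower with an intensity trend, none of them a member. At 10 min 5 probes were lower without background correction, 9 lower with the trend, 1 higher with detection on 2 arrays and 0 higher with median scaling. Between 30 and 60 min 1 probe was lower with the trend. The causes of these changes were not tested.

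Leaving out a saline rat leaves no residual degree of freedom, so it gives values and no counts. The 60 min differences then ran from 1.55 to 2.26 for Ddx21, 1.60 to 1.99 for Npm1, -1.44 to -1.16 for Ncl and -0.95 to -0.83 for Polr1b. At 10 min the signs of Npm1 (-0.33 to 0.05), Nop58 (-0.28 to 0.03) and Nolc1 (-0.06 to 0.20) turned, none of them a call. An isoproterenol rat cannot be left out of its own comparison. No paired analysis was possible because the isoproterenol rats carry no replicate numbers and each time has 1 rat.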
